A study of Mus musculus with 6 samples.

Results

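This section describes 10 genes of T cells and cytotoxic lymphocytes (Cd3e, Cd3g, Cd4, Cd8a, Trac, Trdc, Foxp3, Gzma, Gzmb and Nkg7) in inflamed mouse colon. They were taken by symbol from a table of 27546 genes, and all 10 were listed. Distal colon RNA was sequenced from 3 Gm31629-/- mice and 3 WT littermates, all C57BL/6 and 8 weeks old. The Gm31629-/- mice carried a deletion of the long noncoding RNA gene Gm31629, with no tissue-specific Cre described. All 6 mice drank 3% dextran sulfate sodium (DSS), a detergent-like polymer that injures the colon lining and causes colitis, for 7 days, and were sacrificed on day 8. No mice without DSS were among the samples, so each difference is between genotypes under colitis. Levels are fragments scaled by transcript length and library depth (FPKM), as deposited with a column for each mouse, although the study's methods describe RNA pooled from 3 mice per genotype. Among the Gm31629-/- columns only column 1 held Y-linked RNA, given below, so it was not the same pool as columns 2 and 3. The other columns also differed, as in Gzmb at 14.6, 3.13 and 6.63 FPKM in WT columns 1 to 3. That does not show each column to be 1 animal, so the tests measure only the spread between columns.

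The depth recovered from the table was 18006000 to 18795000 fragments per library, and 1 fragment was the smallest step in a gene's value. Gm31629 RNA itself was not analysed here, so the genotype labels were not checked on the deleted gene. Gm31629-/- mouse 1 alone had RNA from Y-linked genes (Eif2s3y at 15.4 FPKM) and Xist at 0.00606 FPKM. The other 5 libraries had Eif2s3y at 0 and Xist at 8.35 to 13.8 FPKM, while the study's methods state male mice. Calls, and the fold changes of several genes, are therefore also given without Gm31629-/- mouse 1. Whole-tissue make-up differed between the groups. The summed level of 8 smooth muscle genes was 1390 to 2264 FPKM in Gm31629-/- mice and 21.7 to 43.3 FPKM in WT mice. That of 8 pan-leukocyte genes, among them Ptprc, the CD45 gene of all white blood cells, was 139 to 219 against 22.9 to 28.2 FPKM. That of 10 epithelial genes was 7371 to 8806 against 11887 to 12944 FPKM. Their part in the results below was not tested. In whole tissue, fewer cells of a type and less RNA per cell cannot be told apart.

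T cells recognise antigen through a receptor of an alpha and a beta chain, or of a gamma and a delta chain, which signals through the CD3 chains. The coreceptor CD4 marks helper and regulatory T cells and CD8 marks cytotoxic ones, while granzymes are proteases that killer lymphocytes release into target cells. The colon lining holds many intraepithelial lymphocytes, a good share of them carrying gamma and delta chains or a CD8 made of alpha chains alone.

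The promoters of a CD3 chain, of the CD8 alpha chain and of both granzymes are shown because these genes did not pass the call in the comparison described below and belong to the receptor, coreceptor and killing roles. Each line gives the 250 bases before the RefSeq start in GRCm38.p6, read 5' to 3' on the gene's strand. Capitals mark GGAA, the core of sites for ETS factors, TGTGGT, a RUNX site, and TGANTCA, an AP-1 site, each sought on both strands (TTCC and ACCACA are the reverse of the first pair).
Cd3g, chr9:44980432-44980681, minus strand: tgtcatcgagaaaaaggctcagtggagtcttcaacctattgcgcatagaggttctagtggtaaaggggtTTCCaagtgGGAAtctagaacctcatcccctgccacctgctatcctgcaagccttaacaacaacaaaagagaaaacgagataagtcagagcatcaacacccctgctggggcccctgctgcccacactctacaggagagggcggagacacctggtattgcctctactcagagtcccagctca
Cd8a, chr6:71373177-71373426, plus strand: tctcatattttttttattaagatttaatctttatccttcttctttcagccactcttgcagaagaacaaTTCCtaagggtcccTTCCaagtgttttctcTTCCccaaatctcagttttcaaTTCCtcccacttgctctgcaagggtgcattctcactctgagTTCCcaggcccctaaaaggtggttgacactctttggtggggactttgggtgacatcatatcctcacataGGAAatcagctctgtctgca
Gzma, chr13:113100982-113101231, minus strand: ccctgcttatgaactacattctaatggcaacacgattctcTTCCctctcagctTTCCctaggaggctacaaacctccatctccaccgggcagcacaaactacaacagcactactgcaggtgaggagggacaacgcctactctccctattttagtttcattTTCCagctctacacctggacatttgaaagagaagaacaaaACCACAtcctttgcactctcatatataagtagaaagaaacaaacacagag
Gzmb, chr14:56262335-56262584, minus strand: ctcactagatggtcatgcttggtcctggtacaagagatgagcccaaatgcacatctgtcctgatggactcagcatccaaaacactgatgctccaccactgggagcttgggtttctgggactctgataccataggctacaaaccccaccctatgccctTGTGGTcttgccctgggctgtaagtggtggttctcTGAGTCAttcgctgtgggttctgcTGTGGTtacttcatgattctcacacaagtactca

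The RefSeq promoter table held 7 of the 10 genes, with none for Cd4, Trac and Trdc. GGAA occurred in 93.4% of 32851 promoters of the same length, TGTGGT in 14.0% and TGANTCA in 6.75%. The Gzmb promoter held TGTGGT 2 times, TGAGTCA 1 time and GGAA 0 times, whereas the Gzma promoter held ACCACA 1 time and GGAA 3 times. GGAA was found 2 times before Cd3g and 6 times before Cd8a, and neither window held TGTGGT or TGANTCA. These matches describe letters and say nothing of binding in these mice.

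Genotypes were compared on log2(FPKM + 1) with limma over the 14657 genes with a mean of at least 0.5 FPKM. A gene was called when its Benjamini-Hochberg adjusted p was under 0.05 and its log2 fold change beyond 1 in either direction. Of the 10 genes, 8 passed the filter, Trdc and Foxp3 being too low. Cd4 and Trac were called higher in Gm31629-/- mice and no gene was called lower. Against these 2 of 8, 18.4% of all tested genes were called higher and 4.64% lower, so the share of the T cell and cytotoxic genes called was not far from that of the whole table. The same 2 of 10 were called in a fit without the filter, where 9.21% of genes were called higher and 2.25% lower. With no threshold on the fold, Cd3g was added and 3 of 8 were higher, beside 28.9% of tested genes higher and 14.6% lower. All 3 Gm31629-/- values were above all 3 WT values for Cd3g, Cd4 and Trac, as for 31.0% of all listed genes, and the groups overlapped for the other 7. No gene had all 3 below, as 12.6% of listed genes had.

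**Figure D1:**
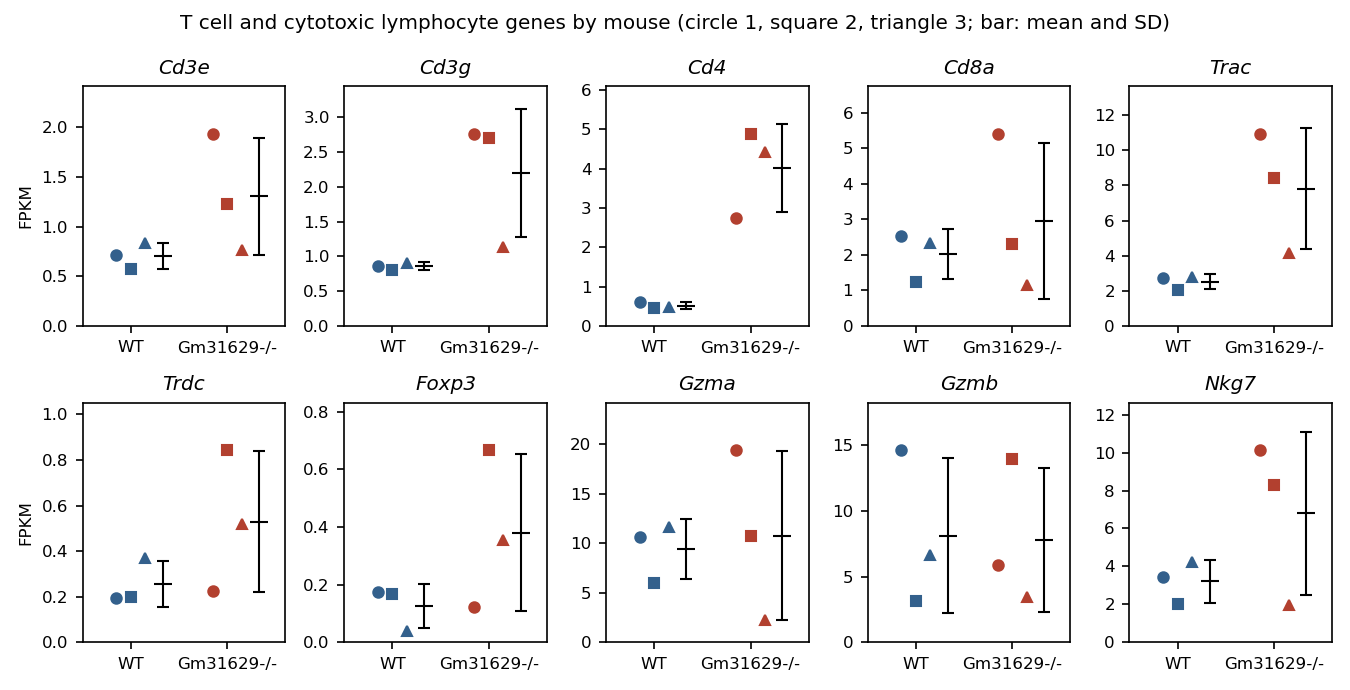
FPKM of each gene (vertical axis, each panel from 0 on its own scale) in 3 WT and 3 Gm31629-/- mice, with circle, square and triangle for mice 1, 2 and 3 and bars for the mean and SD. Cd4 separates the groups by the widest margin, at 0.455 to 0.617 against 2.75 to 4.88 FPKM, while the groups overlap for Gzma, Gzmb and Cd8a.

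The order of the Gm31629-/- mice split the genes. Mouse 1 was highest and mouse 3 lowest for Cd3e, Cd3g, Cd8a, Trac, Gzma and Nkg7. Mouse 2 was highest for Cd4, Trdc, Foxp3 and Gzmb, and mouse 1, the mouse with Y-linked RNA, was lowest for the first 3 of these.

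Receptor chains came first. Trac, the constant region of the alpha chain (chr14:54220521-54224206, plus strand, GRCm38), stood at 10.9, 8.40 and 4.13 FPKM in Gm31629-/- mice 1 to 3 and at 2.72, 2.02 and 2.79 FPKM in WT mice 1 to 3. Every Gm31629-/- value was above every WT value. The means were 7.82 ± 3.43 and 2.51 ± 0.425 FPKM (SD, n = 3 each), a ratio of 3.12. The log2 fold change was 1.25 with a standard error of 0.31 (95% confidence interval 0.52 to 1.99, limma adjusted p = 0.0166). The call rested on single libraries. The adjusted p was 0.057 without WT mouse 2 and 0.0515 without WT mouse 3, and the log2 fold change was 0.99 without Gm31629-/- mouse 1.

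Cd3g, the gamma chain of CD3 (chr9:44969572-44980431, minus strand), stood at 2.76, 2.70 and 1.13 FPKM in Gm31629-/- mice and at 0.860, 0.798 and 0.911 FPKM in WT mice. The groups did not overlap, mouse 3 lying closest to WT. Its log2 fold change of 0.74 (SE 0.24, interval 0.16 to 1.31, limma adjusted p = 0.0448) stayed under the fold needed for a call. With 0.1 added in place of 1 it was 1.17 (limma adjusted p = 0.0376) and Cd3g was called higher. The added 1 thus weighs on its fold at these low levels. The adjusted p of Cd3g was 0.0931 in the fit without a filter and 0.0675 with replicate number as a block. It was under 0.05 in 1 of 6 fits that left out a library, that without Gm31629-/- mouse 3, and up to 0.113 in the others. Cd3e, the epsilon chain on the same chromosome (chr9:44998740-45009627, minus strand), stood at 1.93, 1.22 and 0.760 FPKM against 0.715, 0.572 and 0.835 FPKM. Mouse 3 lay within the WT values, and the log2 fold change of 0.40 had an interval of -0.10 to 0.91 (limma adjusted p = 0.164). The library kit did not mark strand, and 135 exon bases of Cd3e are shared with the antisense gene Gm48719.

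Trdc, the constant region of the delta chain (chr14:54142851-54148868, plus strand), stood at 0.225, 0.841 and 0.521 FPKM in Gm31629-/- mice and 0.196, 0.201 and 0.372 FPKM in WT mice. These values rest on 16, 60 and 37 fragments against 14, 14 and 27. Mouse 1 lay among the WT mice while mouse 2 was highest. Its log2 fold change in the fit without a filter was 0.27 (interval -0.13 to 0.66, limma adjusted p = 0.283). That value was 0.42 without Gm31629-/- mouse 1 (interval 0.08 to 0.76, limma adjusted p = 0.0872) and 0.12 without Gm31629-/- mouse 2. The added 1 holds the fold of Trdc and its interval near 0 at this level. With 0.1 added instead, the log2 fold change was 0.73 (interval -0.44 to 1.89, limma adjusted p = 0.325).

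The chains were also added up as fragments, recovered from FPKM, exon length and depth, over all constant region genes. The total was 775, 608 and 367 fragments in Gm31629-/- mice and 212, 187 and 260 in WT mice. Beta chain fragments were 294, 243 and 160 against 62, 48 and 79, and gamma chain fragments were 277, 160 and 99 against 89, 91 and 105. The beta chain therefore did not overlap between the groups, while the gamma chain of mouse 3 lay within the WT range. Gamma and delta genes together made up 37.8% (exact 95% interval 34.4 to 41.3), 36.2% (32.4 to 40.1) and 37.1% (32.1 to 42.2) of constant region fragments in Gm31629-/- mice. In WT mice the shares were 48.6% (41.7 to 55.5), 56.1% (48.7 to 63.4) and 50.8% (44.5 to 57.0), so that all 3 were above all 3 Gm31629-/- shares. This share was computed after the values were seen and was not tested, and its intervals cover counting error only. Reads shared between the near-identical gamma constant genes may have been split or dropped in counting. Variable region genes, of which 69 were listed, gave 159, 135 and 70 fragments against 57, 40 and 64, from 38, 44 and 30 genes above 0 against 22, 15 and 25.

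**Figure D2:**
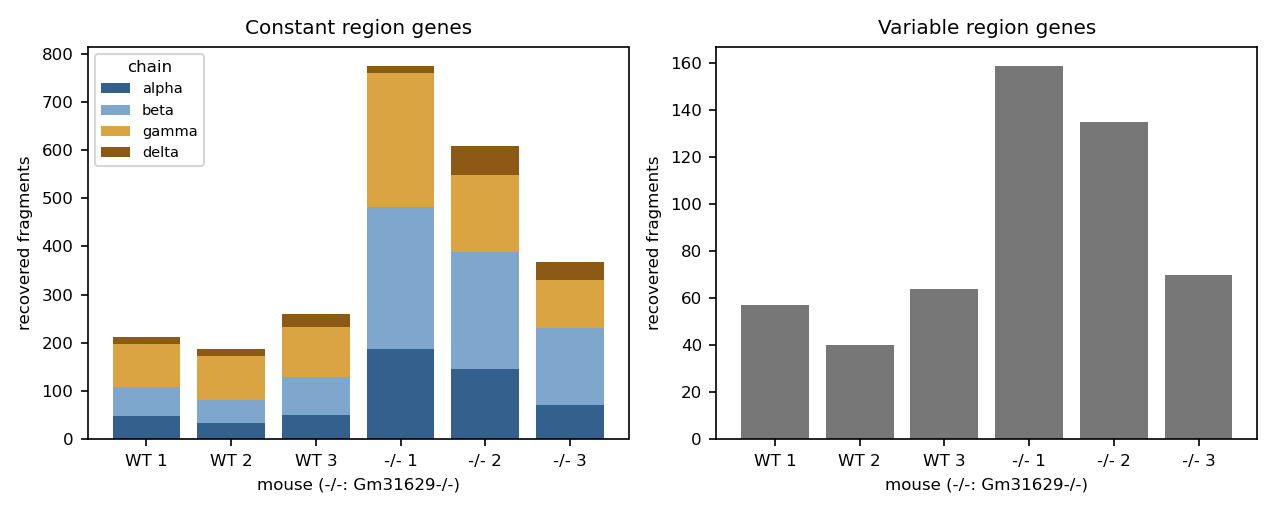
Recovered fragments (vertical axis) per mouse, stacked by chain for the constant region genes on the left and summed over 69 variable region genes on the right. Constant region totals are 187 to 260 in WT mice and 367 to 775 in Gm31629-/- mice, with alpha and beta chains forming the larger part of the bars in Gm31629-/- mice.

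The coreceptors followed. Cd4, which binds MHC class II and is also carried by some macrophages and dendritic cells in mice (chr6:124864692-124888221, minus strand), stood at 2.75, 4.88 and 4.41 FPKM in Gm31629-/- mice and at 0.617, 0.455 and 0.475 FPKM in WT mice. The groups were far apart, with means of 4.01 ± 1.12 and 0.515 ± 0.0883 FPKM (SD, n = 3 each) and a ratio of 7.79. Its log2 fold change was 1.70 with a standard error of 0.21 (interval 1.21 to 2.19, limma adjusted p = 0.00118). Cd4 kept its call in each of the 6 fits that left out 1 library. The macrophage markers rose beside it, 9 of 9 being called higher, with a summed level of 583 to 1289 FPKM against 58.2 to 73.2 FPKM, and their part in the Cd4 result was not tested.

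Cd8a, the alpha chain of the coreceptor for MHC class I (chr6:71373427-71379173, plus strand), stood at 5.41, 2.29 and 1.15 FPKM in Gm31629-/- mice and at 2.54, 1.24 and 2.33 FPKM in WT mice. Mouse 1 was above and mouse 3 below every WT mouse. The log2 fold change of 0.26 had an interval of -0.68 to 1.20 (limma adjusted p = 0.621), and it was -0.16 without mouse 1. The beta chain gene Cd8b1, which pairs with Cd8a on conventional cytotoxic T cells, gave 91, 58 and 30 fragments against 10, 1 and 12. It was called higher, with a log2 fold change of 1.27 (limma adjusted p = 0.0112). Per FPKM, Cd8b1 stood at 0.617, 0.924 and 0.956 times Cd8a in Gm31629-/- mice and at 0.143, 0.0303 and 0.185 times in WT mice, groups that did not overlap. That ratio was taken after the values were seen and was not tested.

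Foxp3, the transcription factor of regulatory T cells (chrX:7573644-7595245, plus strand), was low throughout, at 0.123, 0.666 and 0.355 FPKM in Gm31629-/- mice and 0.176, 0.167 and 0.0400 FPKM in WT mice. Mouse 1 lay within the WT range and the other Gm31629-/- mice above it. Its log2 fold change without a filter was 0.28 (interval -0.08 to 0.64, limma adjusted p = 0.227). That value was 0.42 without Gm31629-/- mouse 1 (interval 0.09 to 0.74, limma adjusted p = 0.0808) and 0.13 without Gm31629-/- mouse 2. The added 1 holds the fold of Foxp3 and its interval near 0 at this level. With 0.1 added instead, the log2 fold change was 0.97 (interval -0.34 to 2.28, limma adjusted p = 0.24). Foxp3 shares 18.6% of its exon bases with Flicr, 12.9% with Ccdc22, 8.15% with Gm36995 and 5.81% with Ppp1r3f, so reads from those bases could not be told from theirs.

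The killing genes showed no call. Gzma, granzyme A (chr13:113093825-113100981, minus strand), stood at 19.4, 10.7 and 2.27 FPKM in Gm31629-/- mice and at 10.6, 5.96 and 11.6 FPKM in WT mice. Gzmb, granzyme B (chr14:56258838-56262260, minus strand), stood at 5.87, 14.0 and 3.49 FPKM against 14.6, 3.13 and 6.63 FPKM. Both spread widely within each genotype and overlapped between genotypes. The log2 fold change was -0.13 for Gzma (interval -1.61 to 1.35, limma adjusted p = 0.882). It was -0.03 for Gzmb (interval -1.38 to 1.32, limma adjusted p = 0.969). No difference was detected, and at this spread these intervals allow a change of more than 2-fold either way. Mast cells can also carry Gzmb, and 9 mast cell genes summed to 10.5, 28.2 and 14.6 FPKM against 22.7, 14.8 and 23.1 FPKM. Of 5 tested mast cell genes 0 were called, and the sums of both groups overlapped, as those of Gzmb did.

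Nkg7, a granule membrane protein of natural killer and cytotoxic T cells (chr7:43437073-43438249, plus strand), stood at 10.1, 8.30 and 1.97 FPKM in Gm31629-/- mice and at 3.43, 2.01 and 4.25 FPKM in WT mice. Mice 1 and 2 were above every WT mouse, and mouse 3 was level with the lowest, WT mouse 2, at 33 fragments each. The log2 fold change was 0.71 (interval -0.46 to 1.88, limma adjusted p = 0.279). Without Gm31629-/- mouse 3 it was 1.30 and Nkg7 was called, so that 4 of the genes (Cd3g, Cd4, Trac and Nkg7) were called in place of 2. Without Gm31629-/- mouse 1 only Cd4 was called.

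Ratios of pairs of genes were taken within each library, 4 between these genes and 1 of Cd3e to Ptprc. A plain FPKM ratio does not depend on how libraries are scaled, but the tested difference of log2(FPKM + 1) does, because of the added 1. With 3 against 3 mice an exact two-sided permutation test cannot give a p under 0.10, and 5 ratios were tested. The plain ratio of Cd8a to Cd4 was 1.97, 0.470 and 0.261 in Gm31629-/- mice and 4.12, 2.72 and 4.90 in WT mice, lower in every Gm31629-/- mouse. On log2(FPKM + 1) the difference was -1.44 and the groups overlapped (exact permutation p = 0.2, adjusted p = 0.25). Cd3e stood at 0.267 to 0.632 times Ptprc in Gm31629-/- mice and 1.74 to 5.13 times in WT mice. Ptprc thus lay below Cd3e in every WT mouse, where Cd3e was 0.572 to 0.835 FPKM, so the WT ratios rest on low values. On log2(FPKM + 1) the difference was -1.35 (exact permutation p = 0.1, adjusted p = 0.167), and it was -2.48 with 0.1 added in place of 1. The plain ratios of Trdc to Trac and of Foxp3 to Cd4 overlapped between groups, with differences of -0.99 and -1.43 on the log2(FPKM + 1) scale (exact permutation p = 0.1 for each), at levels where the added 1 weighs heavily. Gzmb to Gzma differed by 0.10 (exact permutation p = 0.9).

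Leukocyte RNA as a whole was 7.27 times higher in Gm31629-/- mice by the geometric mean of the 8 pan-leukocyte genes, at 13.9, 20.2 and 14.4 FPKM against 2.34, 2.09 and 2.24 FPKM. Per unit of that mean, Cd4 lay at 19.8 to 30.8% in Gm31629-/- mice and 21.3 to 26.3% in WT mice, so the groups overlapped. Trac lay at 28.8 to 78.6% against 96.7 to 125%, and Gzma at 15.8 to 139% against 285 to 521%, without overlap. With libraries scaled to these genes the log2 fold change was 0.06 for Cd4 (interval -0.33 to 0.44, limma adjusted p = 0.757). It was -1.02 for Trac (limma adjusted p = 0.00714), -2.58 for Gzma (limma adjusted p = 0.00133) and -2.44 for Gzmb (limma adjusted p = 0.00114). Cd8a (-1.63), Trac, Gzma, Gzmb and Nkg7 (-1.53) were then called lower, 5 of 8, where 72.7% of all tested genes were called lower and 2.54% higher. Cd3e and Cd3g stood at -0.96 and -0.88. This scaling moved the median of all genes from 0.15 to -1.98, so that of the 8 tested genes only Gzma and Gzmb were lower than the median gene. Scaled instead to the 10 epithelial genes, Cd3g, Cd4 and Trac were called higher, 3 of 8, beside 27.9% of tested genes higher and 1.95% lower.

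**Figure D3:**
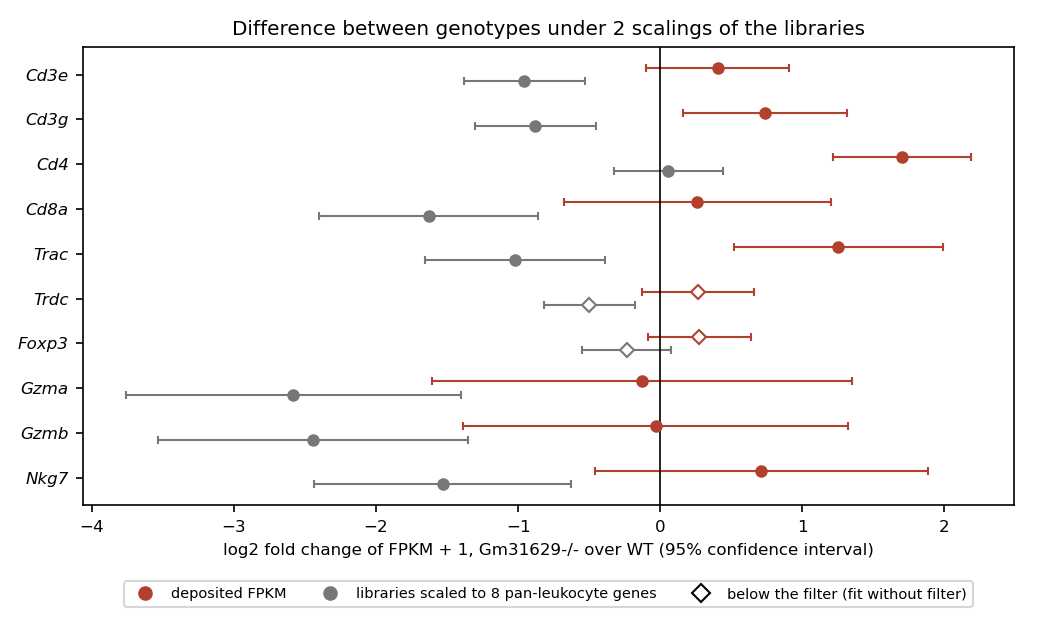
Log2 fold change of FPKM + 1, Gm31629-/- over WT, with 95% confidence intervals, for each gene on the deposited scale and after scaling to 8 pan-leukocyte genes; open diamonds mark Trdc and Foxp3, which are below the filter. Cd4 moves from 1.70 to 0.06 and Gzma from -0.13 to -2.58.

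Wider lists place the genes among others named for T cells and cytotoxic lymphocytes, some of which other cells also carry. Of 85 further genes in 9 lists, 81 were listed and 54 tested, and 26 were called higher and 0 lower, beside 18.4% and 4.64% of all tested genes. Their median log2 fold change was 1.02 against 0.15 over all tested genes. The filter used the mean of all 6 libraries, so a gene low in WT mice could pass through its Gm31629-/- values. Pdcd1 and Gzmk, with WT means of 0.104 and 0.142 FPKM, passed in this way. Without the filter, 25 of the 81 were called higher and 0 lower, beside 9.21% and 2.25% of all genes. Their median was then 0.53 against 0.06 over all genes. The lineage factors with an adjusted p under 0.05 and a lower level that did not pass the fold were Zbtb7b at -0.86 (limma adjusted p = 0.0129) and Bcl11b at -0.55 (limma adjusted p = 0.0317). Leaving out 1 library kept the adjusted p under 0.05 in 5 of 6 fits for Zbtb7b and in 2 of 6 for Bcl11b, with a highest value of 0.106 for the latter. Zbtb7b stood at 33.2 to 84.5 FPKM in these libraries, where Cd4 stood at 0.455 to 4.88 FPKM. Its change is therefore not read as one of T cells, and which cells carried it was not tested. Without Gm31629-/- mouse 1, 27 of the wider genes were called higher. The rise was not particular to these lists. Among other white blood cell lists, 7 of 7 tested neutrophil genes and 9 of 9 macrophage genes were called higher. So were 6 of 7 tested B and plasma cell genes, but 0 of 5 mast cell genes.

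In the receptor list 2 of 6 tested genes were called higher, the beta constant genes Trbc2 (1.69, limma adjusted p = 0.00170) and Trbc1 (1.27, limma adjusted p = 0.0120). Signalling and costimulation genes were called higher for 7 of 12, led by Thy1, a surface protein that stromal cells also carry (2.32), Cd6 (1.69), Lcp2 (1.63) and Cd5 (1.58). Of regulatory and checkpoint genes 6 of 9 were called higher, among them the inhibitory receptors Ctla4 (1.79), Tigit (1.55) and Pdcd1 (1.53) and the costimulatory receptor Tnfrsf4 (1.56). Homing genes were called higher for 6 of 7, with S1pr1, the lymph-node exit receptor that endothelium also carries, at 3.23, the lymph-node entry receptor Ccr7 at 2.53 and Itgb7, a subunit of the gut-homing integrin, at 1.50.

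In the cytotoxic granule list, 2 of the 7 listed genes were tested and Gzmk, granzyme K, was called higher at 1.68 (limma adjusted p = 0.00588). Gzmk had 5.05, 1.99 and 1.69 FPKM in Gm31629-/- mice and 0.311, 0 and 0.115 FPKM in WT mice, without overlap. The pore-forming protein gene Prf1 stayed below the filter. In the CD8 and intraepithelial list Cd8b1 was called, 1 of 5. In the natural killer list 2 of 4 were called, Klrd1 at 1.23 (limma adjusted p = 0.00397) and the chemokine gene Ccl5 at 2.18 (limma adjusted p = 0.0311), though the latter stayed under an adjusted p of 0.05 in 1 of 6 fits that left out a library. Of 6 tested lineage transcription factors 1 was called, Runx3 at 1.54. Effector cytokines gave 0 of 3, with Il4 at 0.65 (limma adjusted p = 0.0318, under 0.05 in 2 of 6 fits that left out a library), Il17a at 0.71 and Il22 at 1.73, where mouse 2 alone held 16.9 FPKM and the others up to 2.11 FPKM.

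**Figure D4:**
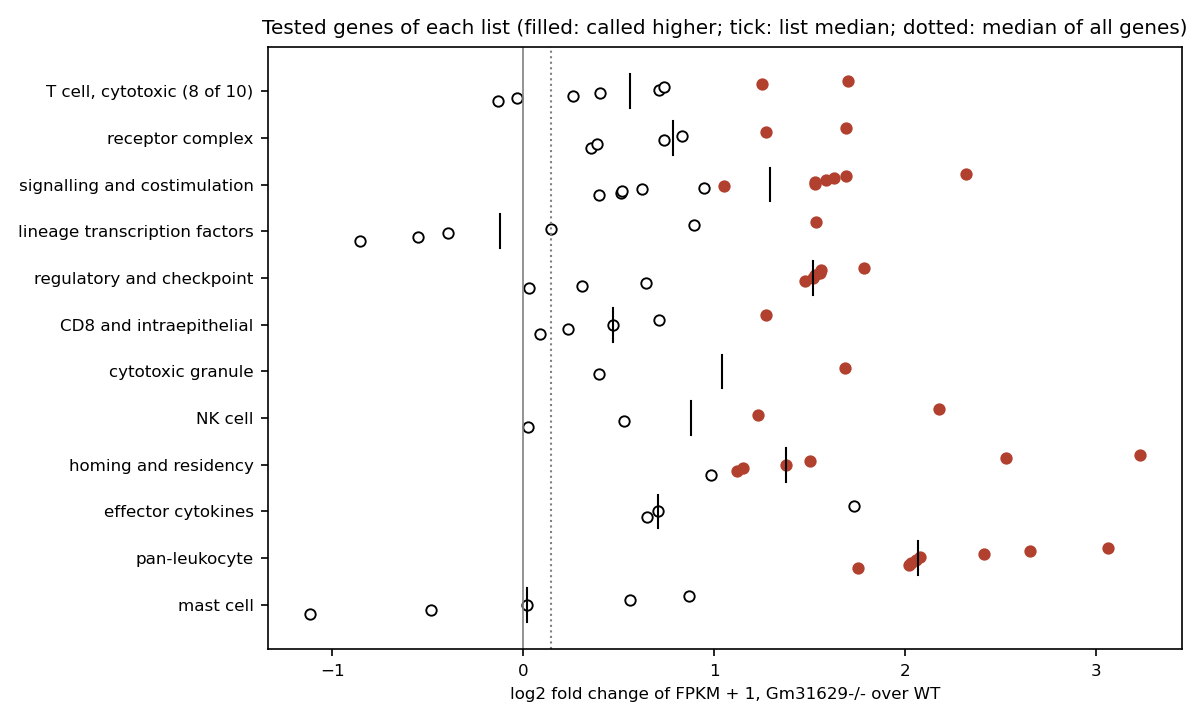
Log2 fold change of FPKM + 1, Gm31629-/- over WT, for each tested gene of each list, with filled circles for genes called higher, a tick for the list median and a dotted line for the median of all tested genes, 0.15. Regulatory and checkpoint genes lie further right, with a median of 1.52, than the T cell and cytotoxic genes, with a median of 0.56. Pan-leukocyte genes lie further right still, with a median of 2.07.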

How the data were processed

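RNA-seq of distal colon from 3 Gm31629-/- and 3 WT mice was deposited as 1 table of FPKM per gene. Per the submitters' processing notes the tools named are HISAT2 2.1.0 and HTSeq 0.6.0, with build GRCm38; the library kit does not mark strand. The deposited FPKM values were made by the authors, whose scaling assumes that total RNA per library is comparable. Exon lengths of GENCODE M21 (27488 of 27546 genes matched) gave back whole fragments: 96.3 to 97.2% of values up to 20 fragments lay within 0.1 of a whole number. Foxp3 did so only with a shorter length.

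Log2(FPKM + 1) of genes with a mean of at least 0.5 FPKM was fitted with limma 3.58.1 in R 4.3.3 (trended variance), with Benjamini-Hochberg adjustment over all tested genes. Values below the filter came from a fit to all genes. Ratios were tested by exact permutation over libraries. Tests were tried on simulated data. Text names all 10 genes, and of each wider list up to 4 called genes with the largest change, plus genes needed for counts of 5 or fewer; 1 gene that this rule would name is not reported here. Zbtb7b, Bcl11b, Prf1, the cytokines and the ratio of Cd8b1 to Cd8a were added once values had been viewed. The genes and lists were chosen with earlier results of these data known. Alternatives were another pseudocount, filter, scaling, variance model, threshold, a replicate block, voom on recovered fragments, and leaving out each library. The replicate numbers did not pair the mice. Gm31629 and genes of the lists with no matching symbol were not analysed here.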

Additional observations from a re-analysis of the deposited data

How the results depend on the processing

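Scaling decided most counts. Scaled to pan-leukocyte genes, 372 genes were called higher and 10650 lower, with 0 of the T cell and cytotoxic genes higher and 5 lower, and 1 of the wider lists higher and 17 lower. Cd3e (-0.96), Cd3g (-0.88), Cd8a (-1.63), Trac (-1.02), Trdc (-0.50), Foxp3 (-0.24) and Nkg7 (-1.53) then turned negative. Scaled to epithelial genes, 4083 were called higher and 286 lower, Gzma was 0.32 and Gzmb 0.40, and Cd3g was called as well. The median of all genes was 0.02 under median ratio scaling, with 1 gene of the wider lists called lower, and 0.52 under epithelial scaling. With a mean of at least 5 FPKM, 956 genes were called higher, 1 of the T cell and cytotoxic genes and 5 of the wider lists, since fewer genes were tested. Testing against a fold of 2 (limma treat) left 795 higher and 117 lower, 0 of the T cell and cytotoxic genes and 3 of the wider lists. With no threshold on the fold, 4238 were higher and 2138 lower, among them 34 higher and 2 lower in the wider lists. Voom on recovered fragments called 1 wider gene lower, with Cd4 at 2.92 and Trac at 1.53. For Cd3g it gave 1.24 with an adjusted p of 0.0509. A pseudocount of 0.1 called Cd3g as well, 3 of the T cell and cytotoxic genes. It moved the log2 ratio of Cd8a to Cd4 to -2.39 and that of Cd3e to Ptprc to -2.48.

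Leaving out 1 library gave 2285 to 2892 genes higher, 513 to 766 lower, 1 to 4 T cell and cytotoxic genes higher and 23 to 29 wider genes higher, with 0 to 1 lower. Cd8a was -0.16 without Gm31629-/- mouse 1. Gzma was 0.62 without Gm31629-/- mouse 3 and 0.03 without WT mouse 3. The ranges were -0.16 to 0.63 for Cd8a, -0.70 to 0.62 for Gzma and -0.51 to 0.46 for Gzmb. Gzmb was 0.05 and 0.36 without Gm31629-/- mice 1 and 3 and 0.46 without WT mouse 1. The log2 ratio of Gzmb to Gzma ranged from -0.26 to 0.76, Cd8a to Cd4 from -2.06 to -1.01, Trdc to Trac from -1.34 to -0.58, Foxp3 to Cd4 from -1.48 to -1.35 and Cd3e to Ptprc from -1.58 to -1.15. The cause of these shifts was not tested.

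Replicate numbers did not pair the mice, as deviations from the group means correlated at 0.036, -0.11 and 0.014 between same-numbered libraries. The libraries themselves correlated at 0.777 to 0.853 between genotypes. With the numbers as a block, 2709 genes were higher and 648 lower, with 2 of the T cell and cytotoxic genes, Cd4 (adjusted p = 0.0058) and Trac (adjusted p = 0.0266). Depth limits Trdc and Foxp3, at 3 to 60 fragments a library.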
